A study of Mus musculus with 19 samples.

Results

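The 10 genes described here encode the Hsp90 chaperones Hsp90aa1 and Hsp90ab1 with the Hsp90 co-chaperone Ahsa1, the small heat shock proteins Hspb1, Hspb8 and Cryab, the mitochondrial chaperonin Hspd1 with its partner Hspe1, and the heat shock factors Hsf1 and Hsf2. They were taken as a list of names, with no measured value in the rule, though with earlier results of these data known. They are 10 of the 54232 genes counted. All 10 were among the 18521 genes with enough reads to be tested. Their RNA was measured in the striatum, a brain region whose neurons are lost in Huntington disease. The 19 mice were 6 months old and on a C57/BL/6 background, with 7 WT mice and 4 of each knock-in (KI) genotype, named KI-FL, KI-571 and KI-96. KI-FL mice, of the HD140Q line, carry an expanded CAG repeat in the full-length mouse Htt gene. KI-96 and KI-571 mice were made by CRISPR/Cas9 cutting of that mutant allele, so that it encodes an N-terminal HTT fragment with the expanded polyQ tract. The truncated lines were heterozygous, KI-571 came from a single founder, and all KI lines express mutant HTT from the endogenous Htt promoter. The labels give neither sex nor sacrifice batch.

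Heat shock proteins bind unfolded or partly folded proteins and keep them from aggregating. Hsp90 completes the folding of kinases, hormone receptors and other clients in the cytosol, with Ahsa1 speeding its ATP cycle. Small heat shock proteins hold misfolded proteins without using ATP, and in brain Cryab is known as an abundant protein of oligodendrocytes. Hspd1 (Hsp60) and Hspe1 (Hsp10) form the folding chamber of the mitochondrial matrix. HSF1 is held inactive by chaperones in unstressed cells and, on release, binds heat shock elements, which are inverted repeats of the bases GAA, in the promoters of many of these genes. HSF2 is a related factor that binds the same elements.

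Heat shock elements were looked for in the RefSeq promoter windows (build GRCm38.p6, 250 bases before to 50 bases after a start), because they are the sites through which HSF1 acts on the chaperone genes. Windows were at hand for 6 of the 10 genes (Hspd1, Hspe1, Hspb8, Hspb1, Hsf2 and Ahsa1), with 7 windows in all. The searched elements were 2 inverted units (GAANNTTC or TTCNNGAA) and 3 alternating units, in which either is followed by 2 more bases and a further inverted unit, so that the longer elements contain the shorter ones and both strands are covered. Among all 32851 promoter windows, 15.1% held an element of 2 units and 0.603% an element of 3 units. Of the 7 windows here, 4 held the former and 2 the latter. The 2 windows with the latter, of Hspd1 and of Hspe1, hold the same bases on opposite strands. The same stretch is thus counted for each of these genes. The sequences below show these elements in capitals, 5′ to 3′ on the strand of the named gene.
Hspe1: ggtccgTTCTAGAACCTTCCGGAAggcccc
Hspb1: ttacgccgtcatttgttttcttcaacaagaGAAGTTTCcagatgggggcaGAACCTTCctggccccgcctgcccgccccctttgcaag
Hspb8: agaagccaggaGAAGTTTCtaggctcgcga

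The Hspe1 stretch lies at chr1:55088053-55088082 on the plus strand, and its 4 alternating units begin 89 bases before the start of Hspe1. Hspe1 and Hspd1 are neighbours that point away from each other, and the same bases, read on the minus strand, begin 144 bases before 1 of the 2 RefSeq starts of Hspd1 and lie in the first exon of an alternative Hspd1 transcript. The window at the other Hspd1 start held no such element. The Hspb1 stretch lies at chr5:135887772-135887859 on the plus strand, with elements of 2 units 117 and 97 bases before the start. In Hspb8 the single element of 2 units begins at base 3 of the transcript, in the stretch chr5:116422844-116422873 on the minus strand. The windows of Hsf2 and Ahsa1 held none of these letters in this order. These matches are a description of sequence and say nothing of factor binding in these mice.

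The libraries held 12669809 to 26388542 reads on genes, with a median of 18202412, and the lowest count of any of the 10 genes was 25, for Hspb1 in KI-96 replicate 3. This library had 24.2% of its reads outside annotated genes, against 11.1% to 16.0% in the other 18. KI-FL replicate 4 had 3186 of the tested genes at 0, against 10 to 222 in the other mice. Results are therefore also given without KI-96 replicate 3 where it moved them. Markers of striatal projection neurons were high in every mouse, with 18 of 18 tested and a summed level of 8770 to 14345 CPM (counts per 1000000 reads, scaled for library composition). Xist, the RNA of the inactive X chromosome of females, was at 886 to 1615 CPM in KI-FL replicate 2, WT replicate 1 and all 4 KI-96 mice and lay at 0.267 to 5.05 CPM in the other 13, so that 4 of 4 KI-96 but 1 of 7 WT mice had the female level. With Xist as a covariate 0 of the 10 genes were called in KI-96 against WT, as without it. Since Xist and the KI-96 genotype nearly coincide, this cannot show whether sex bears on the values. The covariate reversed the sign of the difference for Hsp90ab1, Hspb8 and Hsf2 in KI-96 mice. Choroid plexus markers summed to 344 to 915 CPM in WT mice and up to 7622 CPM in KI-571 and 4378 CPM in KI-FL mice, and cortical neuron markers to 137 to 1197 CPM in WT mice and 155 to 557 CPM in KI mice. Their part in the values below was not tested. In bulk tissue, fewer cells of a type and less RNA per cell cannot be told apart.

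Per length, the Hsp90 genes were the most abundant of the 10. In WT mice the mean level was 464 ± 46.8 RPKM (reads per kilobase of exon per 1000000 reads, SD, n = 7) for Hsp90ab1, the constitutive Hsp90, and 208 ± 18.3 RPKM for Hsp90aa1, the stress-inducible one. Cryab followed at 84.8 ± 20.9 RPKM, Hspd1 at 57.5 ± 5.45 RPKM and Hspe1 at 45.2 ± 7.18 RPKM. Ahsa1 was at 14.1 ± 1.69 RPKM, and the lowest levels were those of Hspb8 at 7.04 ± 1.22, Hsf1 at 6.26 ± 0.597, Hspb1 at 5.16 ± 2.37 and Hsf2 at 2.93 ± 0.237 RPKM. The level of Hsp90ab1 exceeded that of Hsp90aa1, and that of Hsp90aa1 exceeded that of Cryab, in all 19 mice. Cryab lay above Hspd1 in 17 of 19 mice, Hspb8 above Hsf1 in 16, Hsf1 above Hspb1 in 13 and Hspb1 above Hsf2 in 15. The order within each of these pairs thus differed between mice, and the WT ranges of each pair overlapped. These orders were not tested. Hspd1 and Hspe1 also had overlapping WT ranges, although Hspd1 was the higher in 19 of 19 mice.

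The order depends on which length is used, since these lengths are the union of all annotated exons. With the longest principal transcript instead, a choice made after the data had been seen, Hspe1 (86.1 RPKM) passed Hspd1 (62.7 RPKM), and Hsf1 (21.3 RPKM) and Hsf2 (10.8 RPKM) passed Hspb8 (7.56 RPKM) and Hspb1 (5.89 RPKM). The first 3 places stayed as they were, with Hsp90ab1 at 553, Hsp90aa1 at 249 and Cryab at 112 RPKM. Reads that match several places equally well are not counted on a gene, which bears on some of these levels. Of all 100-base stretches in the transcripts of Hsp90aa1, 38.0% also occur in transcripts of other genes, chiefly the annotated copies Gm12346 and Gm5844. The share was 44.0% for Hspb1, chiefly Hsp25-ps1, 23.9% for Hspd1, chiefly Hspd1-ps3, and 0% for Hsp90ab1, Hspb8 and Hsf1. The levels of Hsp90aa1, Hspb1 and Hspd1 are to this extent uncertain.

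None of the 10 genes passed the test against WT in any KI genotype. In the quasi-likelihood test of edgeR, with p-values adjusted by the Benjamini-Hochberg method, 0 of 10 passed an adjusted p of 0.05 in any single KI genotype or in all KI mice against WT, and 0 had an unadjusted p under 0.05. The background by edgeR was low as well, with an adjusted p under 0.05 for 0.027% of all tested genes in KI-96, 0.0324% in KI-571, 0.194% in KI-FL and 0.054% in all KI mice. An unadjusted p under 0.05 was found for 7.45% of all tested genes in KI-96, 7.72% in KI-571, 16.7% in KI-FL and 12.9% in all KI mice. DESeq2 also called 0 of the 10 in each of these comparisons, with 1 unadjusted p under 0.05, that of Hsp90aa1 in KI-96 mice. Over all genes DESeq2 called more than edgeR, with 33 in KI-96, 117 in KI-571, 592 in KI-FL and 303 in all KI mice. The share of all genes with an unadjusted p under 0.05 by DESeq2 was not determined. The CPM ranges of WT and KI mice overlapped for all 10 genes in each genotype, where 1.24% (KI-96), 1.55% (KI-571) and 5.29% (KI-FL) of all genes had ranges that did not overlap. A p that misses the threshold does not show that levels are equal, and the intervals below give what these mice allow.

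Most fitted differences lay slightly below 0. Of the 10 genes, 8 had lower fitted levels than WT in KI-96, 9 in KI-571, 9 in KI-FL and 8 in all KI mice, with median log2 fold changes of -0.14, -0.10, -0.14 and -0.17. The medians over all tested genes were -0.015, -0.0089, -0.028 and -0.022, and 47.2%, 48.3%, 46.1% and 45.5% of all tested genes were fitted higher than WT. The count in KI-96 mice changed without KI-96 replicate 3, as given below. The 10 genes are not independent of each other, with r of 0.90 between Hspe1 and Ahsa1 over the mice. The comparisons with WT share the same 7 WT mice and are not independent either. Without KI-96 replicate 3 and KI-FL replicate 4 the count called was again 0 in each comparison.

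**Figure D1:**
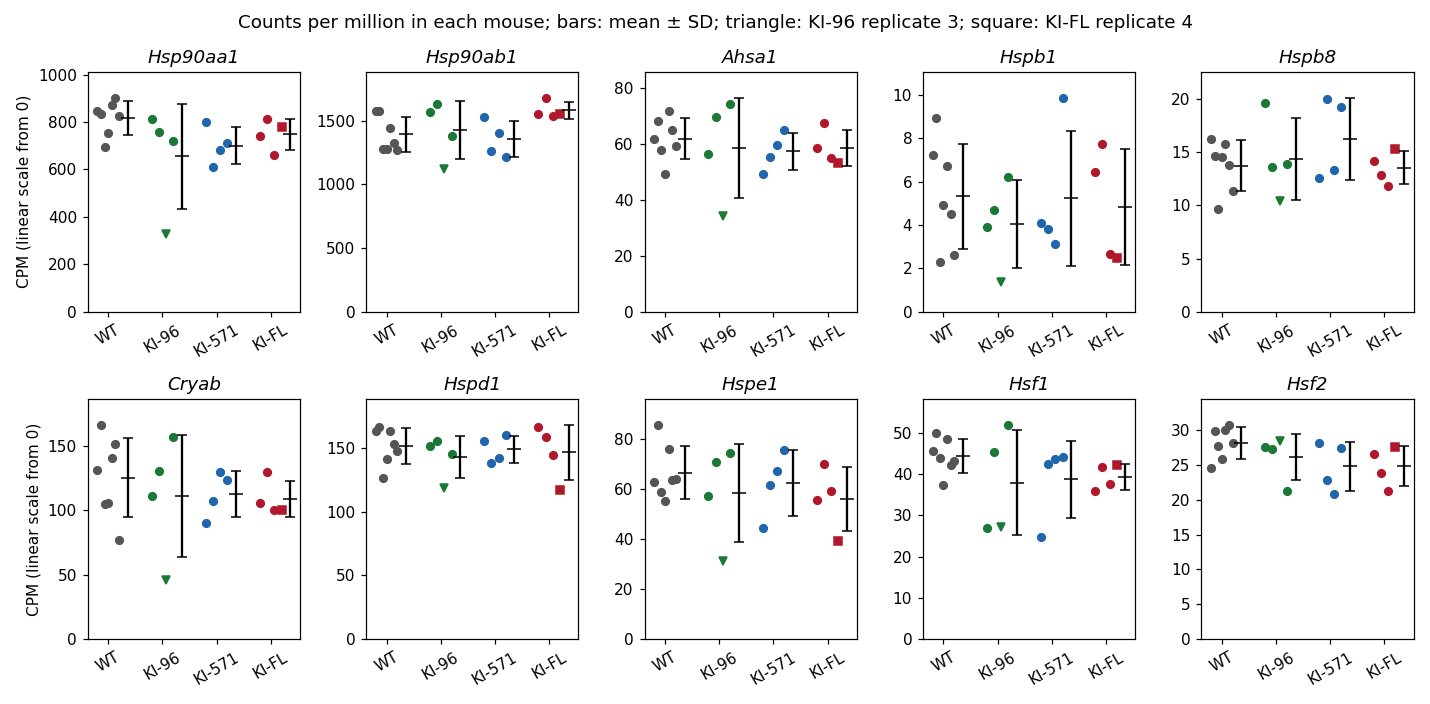
CPM (vertical axis, linear from 0) of each of the 10 genes in every mouse, by genotype (horizontal axis), with the mean ± SD as a bar beside the points. The triangle is KI-96 replicate 3, which lies below all other mice for Hsp90aa1 (327 CPM), Hsp90ab1, Ahsa1, Hspb1, Cryab and Hspe1, and the square is KI-FL replicate 4.

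**Figure D2:**
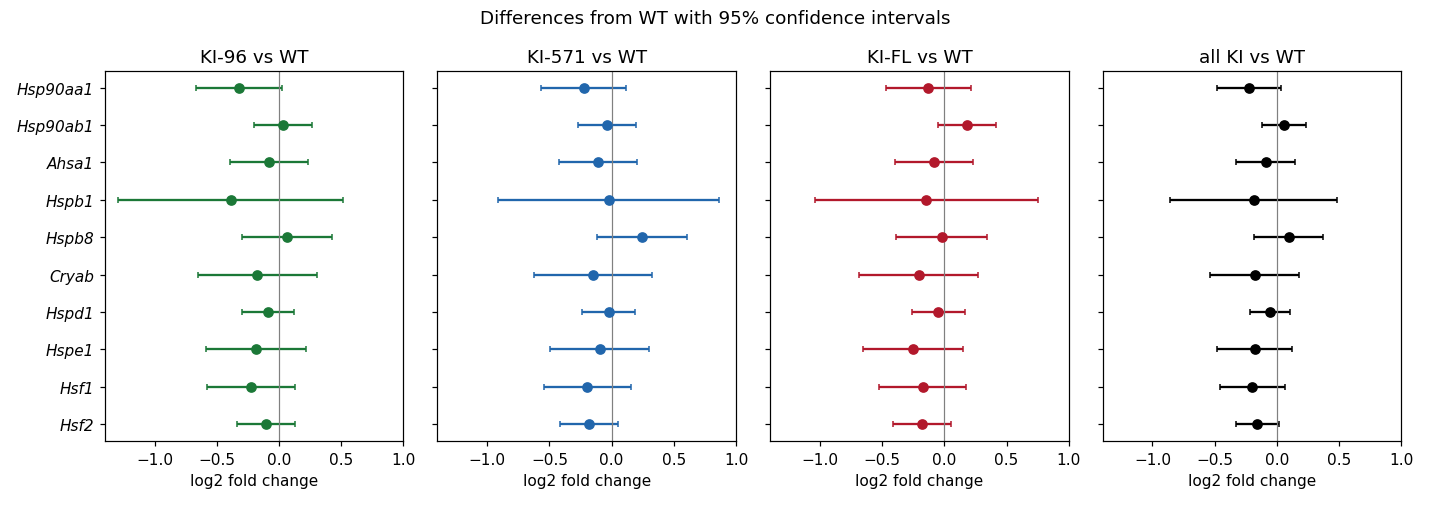
Log2 fold change against WT (horizontal axis) with its 95% confidence interval for each gene (vertical axis), in each KI genotype and in all KI mice. Every interval includes 0, and those of Hspb1 are the widest, from -1.29 to 0.52 in KI-96 mice.

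The stress-inducible Hsp90aa1 (gene ENSMUSG00000021270.13, chr12:110690605-110702728, minus strand) had the largest downward difference of the Hsp90 genes. WT mice had 693 CPM at the lowest, 836 at the median and 903 at the highest. KI-96 replicates 1 to 4 had 812, 758, 327 and 721 CPM, KI-571 replicates 800.2, 608, 683 and 711 CPM, and KI-FL replicates 742, 812, 659.7 and 779 CPM. All 12 KI mice lay below the WT median and 4 of them below the WT minimum, namely KI-96 replicate 3, KI-571 replicates 2 and 3 and KI-FL replicate 3, and the ranges overlapped in each genotype. The log2 fold change was -0.32 in KI-96 (95% interval -0.67 to 0.022, adjusted p = 0.694 by edgeR, Benjamini-Hochberg), -0.22 in KI-571 (-0.57 to 0.12, adjusted p = 0.856) and -0.13 in KI-FL (-0.47 to 0.21, adjusted p = 0.713). In all KI mice it was -0.22 (-0.48 to 0.032, adjusted p = 0.459 by edgeR). Without KI-96 replicate 3, the value in KI-96 mice was -0.10 and that in all KI mice -0.16, with an adjusted p of 0.302 by edgeR for the latter.

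Hsp90ab1 (ENSMUSG00000023944.14, chr17:45567775-45573271, minus strand), the constitutively expressed Hsp90, did not share this direction in KI-FL mice. It had 1269, 1326 and 1581 CPM at the lowest, median and highest in WT mice, 1570.4, 1629.8, 1122 and 1377 CPM in KI-96 mice, 1532, 1265, 1404 and 1218 CPM in KI-571 mice, and 1554, 1683, 1541 and 1550.2 CPM in KI-FL mice. The 4 KI-FL mice lay close together near the WT maximum, with replicate 2 above it. On the log2 scale the difference from WT was 0.18 in KI-FL (-0.047 to 0.41, adjusted p = 0.410 by edgeR, Benjamini-Hochberg), 0.033 in KI-96 and -0.040 in KI-571 mice, and the sign of the latter pair changed with single mice left out. The RPKM ratio of Hsp90ab1 to Hsp90aa1 was 2.24 ± 0.220 in WT (n = 7), 3.09 ± 0.950 in KI-96, 2.54 ± 0.221 in KI-571 and 2.78 ± 0.195 in KI-FL mice (SD, n = 4 each). Without KI-96 replicate 3, at 4.50, it was 2.62 ± 0.173 in KI-96 mice (n = 3). It ran from 1.92 to 2.48 in WT mice, from 2.50 to 4.50 in KI-96 and from 2.61 to 3.06 in KI-FL mice, without overlap with WT, while KI-571 mice (2.25 to 2.73) overlapped with WT. The lowest KI-96 ratio, 2.503, lay just above the highest WT ratio, 2.479. Of single genes, 1.24% in KI-96 and 5.29% in KI-FL mice had CPM ranges without overlap with WT. The share for ratios of gene pairs was not determined. These ratios are a description and were not tested.

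Ahsa1 (ENSMUSG00000021037.7, chr12:87266479-87273998, plus strand), the activator of the Hsp90 ATPase, had 49.1, 61.8 and 71.5 CPM at the lowest, median and highest in WT mice. The values were 56.3, 69.3, 34.0 and 74.2 CPM in KI-96, 49.1, 55.2, 59.6 and 64.9 CPM in KI-571, and 58.4, 67.3, 54.9 and 53.0 CPM in KI-FL mice. Apart from KI-96 replicates 3 and 4, and KI-571 replicate 1 at the WT minimum, the KI mice lay inside the WT range. Fitted against WT, Ahsa1 had a log2 fold change of -0.079 in KI-96, -0.11 in KI-571 and -0.082 in KI-FL mice, and without KI-96 replicate 3 that in KI-96 mice became 0.11.

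Among the small heat shock proteins, Cryab (ENSMUSG00000032060.10, chr9:50751325-50756636, plus strand) had the highest level and varied widely within genotypes. WT mice had 77.3, 131 and 167 CPM at the lowest, median and highest, a coefficient of variation of 24.6%. KI-96 mice had 111, 130.5, 45.5 and 157 CPM, KI-571 mice 90.5, 107, 130.1 and 124 CPM, and KI-FL mice 106, 129.6, 99.9 and 100.1 CPM. All KI mice other than KI-96 replicate 3 were within the WT range. Against WT, Cryab had a log2 fold change of -0.17 in KI-96 (-0.65 to 0.30), -0.15 in KI-571 (-0.63 to 0.32) and -0.20 in KI-FL mice (-0.68 to 0.27), and 0.083 in KI-96 mice without KI-96 replicate 3. Oligodendrocyte markers had fitted levels below WT as well, for 12 of 14 in KI-96 (median -0.21), 13 in KI-571 (-0.13) and 14 in KI-FL mice (-0.32). Of these 0 were called in a single genotype by edgeR, with 3, 4 and 7 of 14 at an unadjusted p under 0.05 (7.45%, 7.72% and 16.7% of all genes), and 1 was called in all KI mice, the galactolipid synthase Ugt8a (-0.64, adjusted p = 0.0355). Their summed level ran from 11291 to 16238 CPM in WT, 9226 to 14986 in KI-96, 11194 to 15772 in KI-571 and 10676 to 12353 in KI-FL mice, and their part in the result was not tested. Cryab overlaps the gene Hspb2 on the other strand by 1030 bases, and the strand setting of the counting is not given. Of the 100-base stretches of Cryab transcripts, 9.92% also occur in those of Hspb2, where reads of the 2 genes cannot be told apart. The counts were 0 to 5 for Hspb2 and 839 to 4272 for Cryab.

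Hspb1 (Hsp25 in mouse, ENSMUSG00000004951.10, chr5:135887919-135889563, plus strand) was low and the most variable of the 10. WT mice had 2.30, 4.93 and 8.93 CPM at the lowest, median and highest, with a coefficient of variation of 45.9%. KI-96 mice had 3.90, 4.71, 1.36 and 6.21 CPM, KI-571 mice 4.08, 3.81, 3.12 and 9.88 CPM, and KI-FL mice 6.44, 7.76, 2.68 and 2.48 CPM. The highest mouse of a KI genotype thus had 3.13 to 4.58 times the level of the lowest. Its log2 fold change against WT was -0.39 in KI-96 (-1.29 to 0.52), -0.023 in KI-571 (-0.91 to 0.86) and -0.14 in KI-FL mice (-1.04 to 0.76). The interval in KI-571 mice runs from 0.532 to 1.82 times the WT level, so that differences within these bounds are not excluded for this gene.

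Hspb8 (ENSMUSG00000041548.4, chr5:116408491-116422864, minus strand), which works with Bag3 in the removal of misfolded proteins by autophagy, had 9.68, 14.5 and 16.3 CPM at the lowest, median and highest in WT mice. It had 19.6, 13.6, 10.4 and 13.9 CPM in KI-96, 12.6, 20.0, 13.3 and 19.2 CPM in KI-571 and 14.2, 12.8, 11.8 and 15.3 CPM in KI-FL mice. Only KI-96 replicate 1 and KI-571 replicates 2 and 4 exceeded the WT maximum. These KI-571 mice also had the highest summed choroid plexus markers, at 6718 and 7622 CPM against 581 and 325 CPM in replicates 1 and 3. KI-96 replicate 1 was within the KI-96 range of 260 to 417 CPM. KI-FL replicate 1, with 4378 CPM of these markers, had 14.2 CPM of Hspb8, inside the WT range. The part of these markers was not tested. The difference of Hspb8 from WT on the log2 scale was 0.24 in KI-571 (-0.12 to 0.60, adjusted p = 0.837 by edgeR, Benjamini-Hochberg), 0.062 in KI-96 and -0.021 in KI-FL mice. The value in KI-571 mice was 0.13 without replicate 2 and 0.15 without replicate 4.

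For the mitochondrial chaperonin, Hspd1 (ENSMUSG00000025980.14, chr1:55077835-55088243, minus strand) was the steadier gene and Hspe1 (ENSMUSG00000073676.4, chr1:55088132-55091307, plus strand) the more variable. Hspd1 had 127, 154 and 167 CPM at the lowest, median and highest in WT, 152, 155, 119 and 145 CPM in KI-96, 156, 138, 142 and 161 CPM in KI-571 and 166, 159, 145 and 117 CPM in KI-FL mice. Only KI-96 replicate 3 and KI-FL replicate 4 lay outside the WT range, both below it. Relative to WT, Hspd1 differed by -0.089 in KI-96 (-0.30 to 0.12), -0.024 in KI-571 (-0.24 to 0.19) and -0.049 in KI-FL mice (-0.26 to 0.16) on the log2 scale. Among the 10 genes these were the narrowest intervals in each KI genotype, from 0.811 to 1.14 times the WT level over the 3. Hspe1 had 55.2, 63.5 and 85.7 CPM at the lowest, median and highest in WT, 57.2, 70.9, 31.3 and 74.5 CPM in KI-96, 44.4, 61.7, 67.4 and 75.7 CPM in KI-571 and 55.5, 69.9, 59.2 and 39.0 CPM in KI-FL mice. The lowest mouse of each KI genotype lay under the WT range and the rest inside it. Hspe1 differed from WT by -0.19 in KI-96 (-0.59 to 0.21), -0.098 in KI-571 (-0.50 to 0.30) and -0.25 in KI-FL mice (-0.66 to 0.15) on the log2 scale, by 0.019 in KI-96 mice without KI-96 replicate 3 and by -0.12 in KI-FL mice without KI-FL replicate 4. The annotated genes overlap by 112 bases at their starts, on opposite strands.

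Hsf1 (ENSMUSG00000022556.11, chr15:76477422-76501913, plus strand), the master regulator of the heat shock response, had 37.4, 44.0 and 50.1 CPM at the lowest, median and highest in WT mice. KI-96 mice had 27.1, 45.5, 27.2 and 52.0 CPM, KI-571 mice 24.9, 42.6, 43.7 and 44.2 CPM, and KI-FL mice 35.9, 41.9, 37.6 and 42.2 CPM. The KI-96 mice lay at both ends of the scale, with replicates 1 and 3 below and replicate 4 above the WT range, and KI-571 replicate 1 stood alone below its group. For Hsf1 the log2 fold change was -0.23 in KI-96 (-0.58 to 0.12), -0.20 in KI-571 (-0.55 to 0.15), -0.17 in KI-FL (-0.53 to 0.18) and -0.20 in all KI mice (-0.46 to 0.063, adjusted p = 0.527 by edgeR, Benjamini-Hochberg). Without KI-571 replicate 1 the value in KI-571 mice was -0.033.

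Hsf2 (ENSMUSG00000019878.8, chr10:57486385-57513135, plus strand) was the least abundant per length by exon union and among the steadiest. It had 24.6, 28.1 and 30.8 CPM at the lowest, median and highest in WT, 27.6, 27.3, 28.5 and 21.3 CPM in KI-96, 28.1, 22.8, 20.9 and 27.4 CPM in KI-571 and 26.6, 23.9, 21.3 and 27.6 CPM in KI-FL mice. Of the 12 KI mice, 5 lay below the WT minimum and none above the WT maximum. The difference from WT was -0.11 in KI-96 (-0.34 to 0.12), -0.18 in KI-571 (-0.41 to 0.050), -0.18 in KI-FL (-0.41 to 0.052) and -0.16 in all KI mice (-0.33 to 0.018, adjusted p = 0.447 by edgeR, Benjamini-Hochberg) on the log2 scale. Without KI-96 replicate 4, the lowest of its group, the value in KI-96 mice was -0.019, and without KI-571 replicate 3 that in KI-571 mice was -0.11. With a p of 0.0758 before adjustment, Hsf2 was the highest ranked of the 10 genes in all KI mice by edgeR, at place 3144 of 18521.

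KI-96 replicate 3 set much of the spread in KI-96 mice. It was the lowest of all 19 mice for 6 of the 10 genes, namely Hsp90aa1, Hsp90ab1, Ahsa1, Hspb1, Cryab and Hspe1. Its 327 CPM of Hsp90aa1 compare with 764 ± 45.6 CPM in the other KI-96 mice (SD, n = 3) and with 608 to 903 CPM in the other 18 mice. Hsf2, in contrast, was at 28.5 CPM there, the 16th value from the lowest, so that not all of the 10 genes were low in this library. The same library had the lowest summed level of oligodendrocyte markers (9226 CPM) and of microglia markers (320 CPM, against 391 to 569 CPM in the other mice) and the highest share of reads outside genes. The part of these in its chaperone values was not tested. Without it, 5 of the 10 genes had fitted levels above WT and 5 below in KI-96 mice, where 2 were above with it. The log2 fold changes were then 0.19 for Hspb8, 0.13 for Hsp90ab1, 0.11 for Ahsa1, 0.083 for Cryab and 0.019 for Hspe1. They were -0.014 for Hspd1, -0.096 for Hsf1, -0.10 for Hspb1 and Hsp90aa1 and -0.15 for Hsf2.

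**Figure D3:**
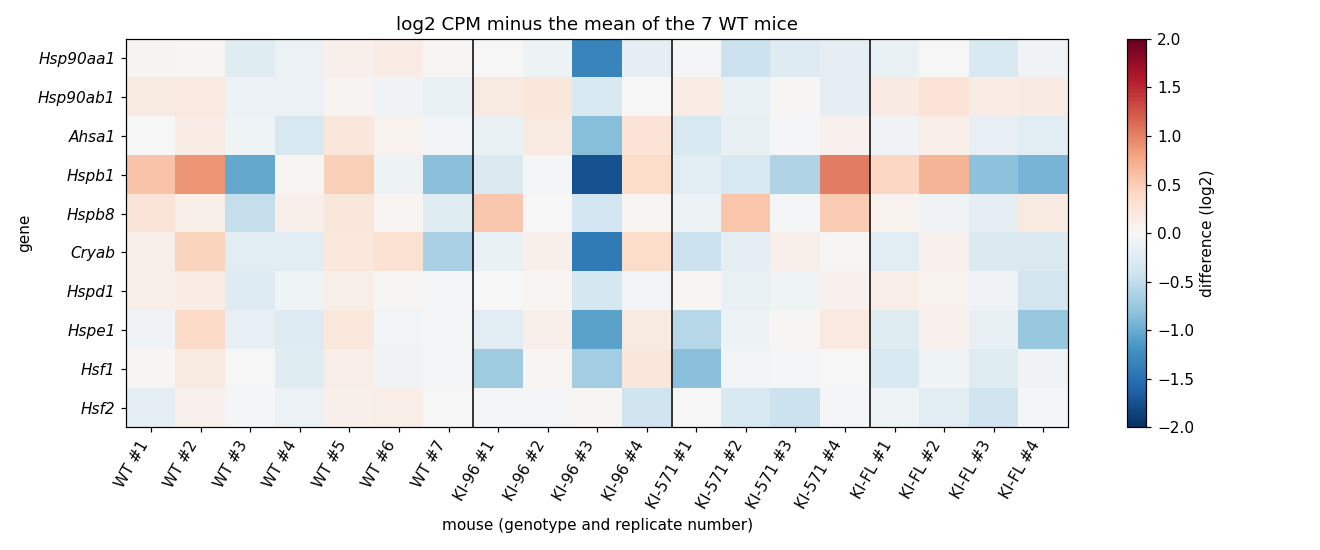
Log2 CPM minus the mean of the 7 WT mice (colour, from -2 to 2) for each of the 10 genes (rows) in each of the 19 mice (columns, by genotype). KI-96 replicate 3 is blue for most genes, with -1.32 for Hsp90aa1, and the strongest red among KI mice is Hspb1 in KI-571 replicate 4.

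The KI genotypes were also compared with each other, the truncated forms with KI-FL and KI-96 with KI-571. All KI-96 mice and no KI-571 mouse had the female level of Xist, and among KI-FL mice only replicate 2 had it. In KI-96 against KI-571 mice genotype and sex therefore cannot be told apart, and in KI-96 against KI-FL mice they nearly coincide. None of the 10 genes was called by edgeR after Benjamini-Hochberg adjustment, against 0% of all genes called in KI-96 compared with KI-FL (52 genes called by DESeq2), 0.0864% in KI-571 compared with KI-FL and 0.0054% in KI-96 compared with KI-571. The unadjusted p was under 0.05 for 0 of 10 in each, by edgeR and by DESeq2, and by edgeR for 8.9%, 8.9% and 5.51% of all genes in the same order. The smallest p of the 10 belonged to Hsp90ab1 in KI-571 against KI-FL mice, whose ranges of 1218 to 1532 CPM and 1541 to 1683 CPM did not overlap. The log2 fold change was -0.22 (-0.49 to 0.038, adjusted p = 0.618 by edgeR), and it was the only one of the 10 genes without overlap in this comparison, where 4.32% of all genes had none. In KI-96 against KI-FL mice Hsp90ab1 again had the smallest p, with -0.15 (-0.41 to 0.11, adjusted p = 0.754 by edgeR), and in KI-96 against KI-571 mice it was Hspb8, with -0.18 (-0.59 to 0.23, adjusted p = 0.991 by edgeR).

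Whether the genes moved together from mouse to mouse was examined in 9 pairs, after the mean of each genotype had been subtracted from log2 CPM, over 19 mice. The permutation tests shuffled mice within genotypes 100000 times and were two-sided, and their p-values were adjusted over the 9 pairs by the Benjamini-Hochberg method. Hspd1 and Hspe1 had Pearson's r of 0.68 (permutation p = 0.0085, adjusted p = 0.0308) and Spearman's rho of 0.65 (permutation p = 0.00588, adjusted p = 0.0334). Hsp90aa1 and Hsp90ab1 had r of 0.74 (permutation p = 0.00435, adjusted p = 0.0308) and rho of 0.63 (permutation p = 0.00965, adjusted p = 0.0334). Cryab and the mean of the oligodendrocyte markers had r of 0.70 (permutation p = 0.0103, adjusted p = 0.0308) and rho of 0.63 (permutation p = 0.0111, adjusted p = 0.0334). Hspb1 and Hspb8 had r of 0.59 (permutation p = 0.0204, adjusted p = 0.046) and rho of 0.53 (permutation p = 0.0332, adjusted p = 0.0598).

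These 4 relations rested in part on KI-96 replicate 3. Without the 2 mice farthest from the median of the first gene, r was 0.32 for Hspd1 and Hspe1, 0.53 for Hsp90aa1 and Hsp90ab1, 0.50 for Cryab and the oligodendrocyte markers and 0.33 for Hspb1 and Hspb8. Without KI-96 replicate 3 alone the adjusted permutation p was 0.145 for each of the 4. Within the 7 WT mice, which leave out that library, r was 0.72, 0.45, 0.52 and 0.91 in the same order. The other 5 pairs did not pass the adjusted test by r. Hsp90aa1 with its co-chaperone Ahsa1 had r of 0.76 and rho of 0.58 (permutation p = 0.0618 and 0.0314, adjusted p = 0.111 and 0.0598), and 0.19 without KI-96 replicate 3. Hsp90aa1 with Hspe1 had r of 0.59 and rho of 0.39 (permutation p = 0.153 and 0.164, adjusted p = 0.155 and 0.211), which turned to r of -0.083 without that library. Hspb8 with the oligodendrocyte markers had r of 0.41 and rho of 0.31 (permutation p = 0.155 and 0.275, adjusted p = 0.155 and 0.31). Hspb1 had r of 0.42 and rho of 0.26 with the astrocyte markers (permutation p = 0.12 and 0.315, adjusted p = 0.154 and 0.315) and r of 0.40 and rho of 0.44 with those of blood vessel cells (permutation p = 0.108 and 0.0837, adjusted p = 0.154 and 0.125). Without their own 2 farthest mice, these 5 pairs had r of 0.32, -0.025, -0.060, -0.26 and 0.28. Depth, dissection and batch are shared within these points in ways the labels do not give.

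**Figure D4:**
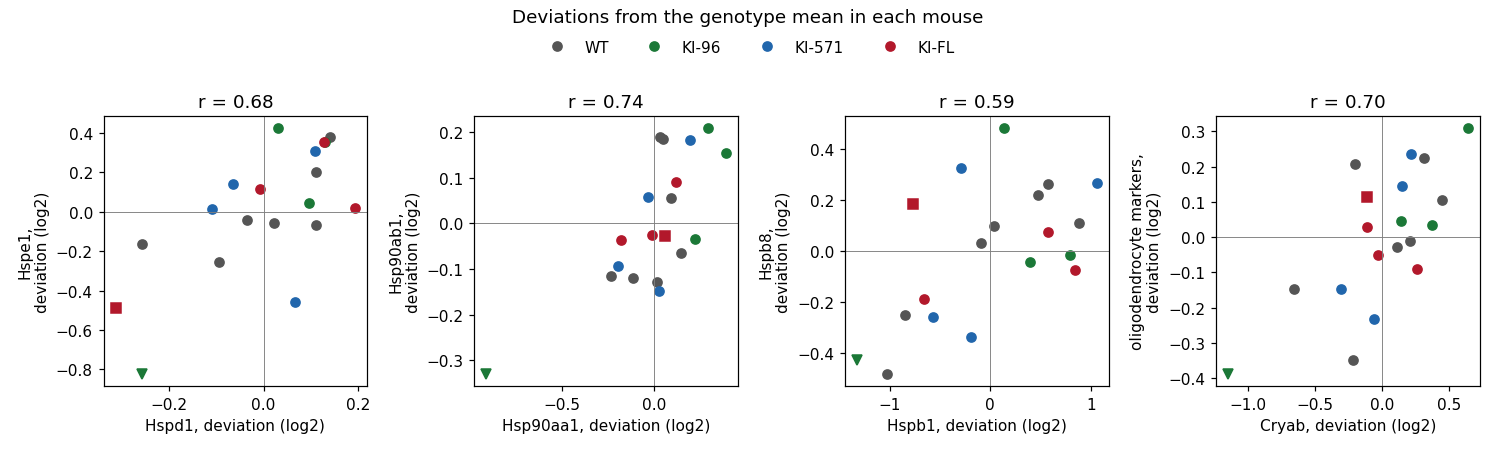
Deviation of log2 CPM from the genotype mean in each of the 19 mice for the 4 pairs that passed the adjusted test, with the first of each pair on the horizontal and the second on the vertical axis. KI-96 replicate 3 (triangle) lies at the lower left of each panel, and KI-FL replicate 4 (square) does so for Hspd1 and Hspe1.

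The genes whose log2 CPM was most like that of each of the 10, by Pearson's r over the same 19 mice, are given as a description. For Hsp90ab1 they were Zc3h15 (r = 0.87) and the chaperonin subunits Cct3 (0.85) and Cct8 (0.83), with 0.83, 0.80 and 0.77 without KI-96 replicate 3. For Hsp90aa1 they were Penk (0.86), Sdcbp (0.85) and Polr2l (0.85), with 0.54, 0.52 and 0.21 without that library. Hspb1 was most like Hspd1 (0.84), Srsf7 (0.80) and the Hsp40 gene Dnaja1 (0.80), and these were 0.78, 0.73 and 0.74 without it. Hspd1 was most like Gspt2 (0.86), Arhgap18 (0.84) and Hspb1 (0.84). Cryab was most like Ahsa1 (0.89), Pantr1 (0.86) and Mrpl9 (0.84), with 0.76, 0.67 and 0.64 without KI-96 replicate 3. Ahsa1 was most like Mrps12 (0.91), Hspe1 (0.90) and Cryab (0.89), with 0.80, 0.82 and 0.76 without it. Thus 4 of the 10 genes had another of the 10 among their 3 nearest over all 19 mice. The count that other sets of 10 genes give was not determined. Hspe1 was most like Rab28 (0.94), Bcas2 (0.93) and Uqcrb (0.93), Hsf1 like Dus3l (0.94), Entr1 (0.94) and Ap1m1 (0.93), Hsf2 like Eif2a (0.80), Otud4 (0.78) and Dazl (0.77), and Hspb8 like Tcn2 (0.74), Smad6 (0.73) and Lrp10 (0.70).

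None of the related genes was called against WT either, although some had an unadjusted p under 0.05, for which the shares over all genes were 7.45% in KI-96, 7.72% in KI-571, 16.7% in KI-FL and 12.9% in all KI mice. Of 25 other Hsp90 paralogs and co-chaperones, 0 passed in any comparison with WT by edgeR after Benjamini-Hochberg adjustment, with 0 at an unadjusted p under 0.05 in KI-96 mice, 2 in KI-571, 5 in KI-FL and 7 in all KI mice. In all KI mice, 16 of them were fitted higher and 9 lower, with a median of 0.057 on the log2 scale. The co-chaperone Fkbp5, which dampens glucocorticoid receptor activity, ran from 39.1 to 61.1 CPM in WT, 44.3 to 58.9 in KI-96, 48.1 to 76.0 in KI-571 and 54.8 to 92.6 in KI-FL mice. Fkbp5 had a log2 fold change of 0.40 (0.16 to 0.64) in all KI mice and 0.59 (0.28 to 0.89) in KI-FL mice, with adjusted p of 0.149 and 0.0800 by edgeR. Cdc37l1, a homologue of the kinase co-chaperone Cdc37, was at -0.27 (-0.47 to -0.065) in all KI mice, with an adjusted p of 0.247 by edgeR.

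Of the 22 HSF1 target genes, 0 were called against WT by edgeR, with 1 of 22 at an unadjusted p under 0.05 in KI-96, 2 in KI-571, 7 in KI-FL and 7 in all KI mice (12.9% of all genes in the latter, 16.7% in KI-FL), and in all KI mice 11 were fitted higher and 11 lower with a median of -0.011. The inducible Hsp70 gene Hspa1b had the smallest p after Fkbp5, which is also on this list. It ran from 0.363 to 37.4 CPM in WT mice, with a median of 7.63, and from 1.95 to 6.80 in KI-96, 5.81 to 10.7 in KI-571 and 2.32 to 8.71 CPM in KI-FL mice. The WT mice thus spanned both ends, above and below all KI mice, and the log2 fold change of -1.70 (-2.86 to -0.53) in all KI mice had an adjusted p of 0.201 by edgeR. Of the 8 further small heat shock proteins and partners, 4 were tested and 0 called, with 0 at an unadjusted p under 0.05. Bag3, the partner of Hspb8, was at -0.26 (-0.60 to 0.082) and Hspb11 at -0.23 (-0.58 to 0.12) in all KI mice.

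Of 10 other HSF genes and HSF1 regulators, 8 were tested and 0 called, with 1, 0, 1 and 1 at an unadjusted p under 0.05. Vcp, an ATPase that extracts ubiquitinated proteins, ran from 197 to 229.98 CPM in WT and from 239 to 262 CPM in KI-FL mice, without overlap, and its log2 fold change in all KI mice was 0.17 (0.044 to 0.30, adjusted p = 0.246 by edgeR). Sirt1, a deacetylase that acts on HSF1, was at -0.14 (-0.31 to 0.024). Of 15 other mitochondrial chaperones and proteases, 0 were called, with 1, 1, 2 and 1 at an unadjusted p under 0.05, and 11 of 15 were fitted higher in all KI mice with a median of 0.067. The matrix protease Lonp1 had the smallest p, with 71.5 to 84.6 CPM in WT, 80.1 to 100.5 in KI-96, 79.5 to 100.5 in KI-571 and 90.4 to 104.7 CPM in KI-FL mice and a log2 fold change of 0.24 (0.11 to 0.38, adjusted p = 0.111 by edgeR) in all KI mice. Trap1, the mitochondrial Hsp90, was at 0.11 (-0.0084 to 0.23, adjusted p = 0.428 by edgeR), with 55.7 to 58.6 CPM in WT, 61.6 to 64.4 CPM in KI-96, 59.4 to 64.9 CPM in KI-571 and 50.6 to 67.8 CPM in KI-FL mice. Lonp1 in KI-FL mice and Trap1 in KI-96 and KI-571 mice thus also had no overlap with WT. Of all genes this held for 5.29% in KI-FL, 1.24% in KI-96 and 1.55% in KI-571 mice. Vcp, Lonp1 and Trap1 are named for their small p in all KI mice, so that ranges apart from WT follow in part from the choice. The shares over all genes are therefore no measure of how unusual these genes are.

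**Figure D5:**
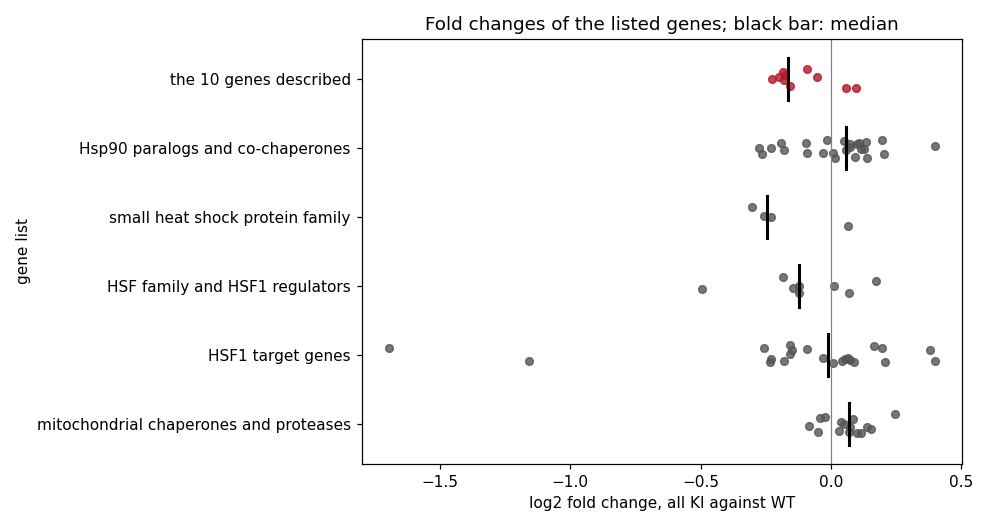
Log2 fold change of all KI against WT mice (horizontal axis) for each tested gene of the 10 described and of 5 related lists (vertical axis), with the median of each as a black bar. The medians lie between -0.24 and 0.067, and the point farthest to the left is Hspa1b at -1.70.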

How the data were processed

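RNA from the striatum of 19 mice was extracted with Trizol and sequenced, and genotype and replicate number were taken from the labels. The values the authors deposited are whole-number read counts for each gene, without any normalization. Per the study's methods, adapters were trimmed with BBduk, reads under 100 bases were discarded, and the rest were aligned to GRCm38 with STAR and counted with HTSeq. The annotation, strand setting and versions are not given in the sources used here. The study used sacrifice batch as a covariate and removed a WT sample as an outlier. Neither is in the labels, so that all 7 WT mice were kept and no batch was fitted. The table held 4 columns that match none of these samples, which were not used, and 5 HTSeq summary lines were left out.

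The filterByExpr filter (minimum count 10, minimum total 15) kept 18521 of 54232 genes. The 19 mice were fitted with edgeR 4.0.16 in R 4.3.3 (TMM, a coefficient per genotype, quasi-likelihood test), with Benjamini-Hochberg adjustment over all tested genes and a threshold of 0.05. All p-values measure the spread between these mice. Log2 CPM used a prior count of 2, and RPKM used exon lengths from GENCODE M21 (54165 genes matched). The common biological coefficient of variation was 0.240. The procedure was tested on simulated data. Total counts set the depth, and intervals of fold changes are 95%.

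The 10 genes and all lists were chosen with earlier results of these data known. The rule for named genes took the 10 genes against WT, the gene of smallest p in each comparison between KI genotypes, in each related list the 2 genes of smallest p in all KI mice, and for each of the 10 the 3 most similar genes. Alternatives were DESeq2 1.42.0, its size factors in edgeR, no filter, only the groups compared, Xist as a covariate, 1 surrogate variable (sva 3.50.0), WT replicates 1 to 4 alone, a replicate block, each mouse left out and a threshold of 0.1. Leaving out KI-96 replicate 3 together with KI-FL replicate 4, or KI-96 replicate 3 in the correlations and the Hsp90 ratio, and the transcript length were alternatives chosen after seeing the data. Sequences are from RefSeq (GRCm38.p6).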

Additional observations from a re-analysis of the deposited data

Results flagged for a closer look

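Within the 40 groups formed by 10 genes and 4 genotypes, a mouse stood apart from its group by Dixon's test on log2 CPM in 4, where chance gives about 2. Hsp90aa1 in KI-96 replicate 3 was at 8.35 on the log2 CPM scale, where the rest of its genotype lay between 9.49 and 9.67. Hsf1 in KI-571 replicate 1 was at 4.64, while the other KI-571 mice lay between 5.42 and 5.47. Hsf2 in KI-96 replicate 4 was at 4.42, where the rest of its genotype lay between 4.78 and 4.84. Hsp90ab1 in KI-FL replicate 2 was at 10.72, while the other KI-FL mice lay between 10.59 and 10.6. Each of these belongs to a different gene, and 2 of the 4 belong to KI-96 mice.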

How the results depend on the processing

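The count of the 10 genes called stayed at 0 in every comparison and under each alternative, and the lowest adjusted p over all of them was 0.225, for Hsf2 in all KI mice without KI-96 replicate 3 and KI-FL replicate 4. The 40 fold changes against WT gave 1110 values under the alternatives, of which 1073 kept their direction and 37 did not. Most alternatives left out a single mouse and reused the rest, so that the kept directions are not independent of each other. An unadjusted p under 0.05 was found for 21 of the values, and the share over all genes under these alternatives was not determined. The opposite sign was found with Xist as a covariate in KI-96 mice for Hsp90ab1 (-0.055), Hspb8 (-0.033) and Hsf2 (0.015), with 1 surrogate variable in KI-FL mice for Hspb1 (0.13) and Hspd1 (0.057), with WT replicates 1 to 4 alone for Hsp90ab1 in KI-96 mice (-0.0055), and with the replicate block for Hsp90ab1 in KI-96 (-0.0062) and Hspd1 in KI-571 mice (0.0074). The replicate block changed no call. Deviations from the group means of same-numbered mice correlated at -0.13 to 0.29 and over 0.1 in 5 of 24 pairs. Their median was -0.0048, against -0.0049 in pairs with different numbers. Whether some same-numbered mice share a batch cannot be told from these values. Without KI-96 replicate 3 and KI-FL replicate 4, Cryab (0.084), Hspe1 (0.019) and Ahsa1 (0.11) in KI-96 mice and Hspb1 (0.062) and Hspd1 (0.038) in KI-FL mice turned positive. With each mouse left out, the range crossed 0 in KI-96 mice for Ahsa1 (-0.22 to 0.11), Cryab (-0.39 to 0.083), Hsp90ab1 (-0.039 to 0.13), Hspb8 (-0.12 to 0.19) and Hspe1 (-0.33 to 0.019), in KI-571 mice for Hsp90ab1 (-0.11 to 0.0066), Hspb1 (-0.53 to 0.16), Hspd1 (-0.063 to 0.011) and Hspe1 (-0.21 to 0.033), and in KI-FL mice for Hspb1 (-0.46 to 0.070), Hspb8 (-0.10 to 0.030) and Hspd1 (-0.13 to 0.044). The cause was not tested. Without KI-96 replicate 3, r was 0.55 for Hspd1 and Hspe1, 0.54 for Hsp90aa1 and Hsp90ab1, 0.47 for Hspb1 and Hspb8, 0.52 for Cryab and the oligodendrocyte markers and -0.083 for Hsp90aa1 and Hspe1, and without KI-FL replicate 4 it was 0.60 for Hspd1 and Hspe1. DESeq2 called more genes over the whole table than edgeR, with 33, 117, 592 and 303 against 5, 6, 36 and 10 in KI-96, KI-571, KI-FL and all KI mice, and between KI genotypes 52, 116 and 36 against 0, 16 and 1. Hspb1 had the lowest counts, 25 to 184, and its coefficient of variation between mice of a genotype was 45.9% to 59.9%. The part of counting error in it was not tested.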
